A study of Mus musculus with 5 samples.

Results

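The CCN and thrombospondin genes Ccn1, Ccn2, Ccn3, Ccn4, Ccn5, Thbs1 and Thbs2 were followed on arrays of mouse forelimb buds taken at E11.5. They were found by the gene symbol of each probe set (a group of short array probes for 1 transcript), under the current or the earlier name: Cyr61 for Ccn1, Ctgf for Ccn2, Nov for Ccn3, Wisp1 for Ccn4 and Wisp2 for Ccn5. The 7 genes held 15 of the 45037 non-control probe sets and 7 of the 18193 genes with a symbol. The double mutant group was Sost-/-; Sostdc1-/- (2 arrays) and the wild type group carried neither mutation (3 arrays), both C57Bl/6. Each array held total RNA of fore-limb tissue, and embryos were not pooled, per the labels. The kind of mutant allele was not given in the sources used here. Sost encodes sclerostin and Sostdc1 a related secreted protein, and both block Wnt signals at LRP co-receptors. Values are log2 intensities, and a difference is double mutant minus wild type. The genes were selected on their log2 values in these same 5 arrays, so the calls below describe these arrays and support nothing further.

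CCN proteins are secreted into the matrix, where they do not build fibres but bind integrins, heparan sulfate and growth factors and change how cells respond to them. Ccn1 and Ccn2 are induced by YAP and TAZ with TEAD factors, by serum and by TGF-beta, and Ccn2 acts in cartilage growth and vessel formation. Ccn4 was first described as a gene induced by Wnt1, and Ccn5 lacks the C-terminal knot domain of its relatives. Thrombospondins 1 and 2 are large secreted proteins that restrain blood vessel growth through CD36 and CD47, and thrombospondin 1 can release active TGF-beta from its latent form.

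Of the 7 genes, 2 (Ccn1 and Thbs2) matched an entry in the RefSeq promoter table of GRCm38.p6. Their stretches are shown because an entry was at hand, not because of their calls. Each line holds the 250 bases before the annotated start, 5′ to 3′ on the gene's strand (minus for both), at chr3:145649986-145650235 for Ccn1 and chr17:14694263-14694512 for Thbs2. Capitals mark the TEAD motif GGAATG, here read on the other strand.
Ccn1: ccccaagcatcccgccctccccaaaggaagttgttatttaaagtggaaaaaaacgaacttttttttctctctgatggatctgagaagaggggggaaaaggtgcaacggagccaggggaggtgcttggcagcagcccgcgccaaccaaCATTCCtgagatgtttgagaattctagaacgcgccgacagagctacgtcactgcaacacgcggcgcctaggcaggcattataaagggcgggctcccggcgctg
Thbs2: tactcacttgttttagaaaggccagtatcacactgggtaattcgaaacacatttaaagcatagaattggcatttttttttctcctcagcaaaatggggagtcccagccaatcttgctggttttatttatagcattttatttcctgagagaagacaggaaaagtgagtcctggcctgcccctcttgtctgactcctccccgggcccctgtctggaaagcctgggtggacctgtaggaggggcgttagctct
The Ccn1 stretch held 1 TEAD match, whose first base lay 103 bases before the start, and the Thbs2 stretch held 0. Of 32851 promoter stretches of this length, 12.6% held the motif on either strand. Neither stretch held the AP-1 motif TGANTCA (6.75% of all stretches), the TCF/LEF core CTTTGA (13.8%) or a CArG box, the binding site of SRF (1.47%). No match overlapped another, and a match describes these letters only.

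The groups stood apart across the whole array, with Pearson correlations over probe sets (themselves no replicates) of 0.991 to 0.995 within a group and 0.954 to 0.969 between groups. The Dap spike-in, an RNA normally added before labelling, was at 6.90 and 7.28 in double mutants against 3.23 to 3.36 in wild type. The 3′ minus 5′ difference of the Gapdh control probe sets was 0.16 to 0.27 in double mutants and −0.14 to −0.06 in wild type, and that of Actb 0.56 to 0.65 and 0.20 to 0.68. Such values move with RNA quality and labelling, so for every difference given here genotype and preparation cannot be told apart. Each targeted gene was called lower on 1 of 2 probe sets (Sost 1450179_at −2.17 ± 0.20, SE, Sostdc1 1460250_at −2.35 ± 0.37). On the others Sost 1421245_at was lower without a call (−0.73, adjusted p = 0.237), while Sostdc1 1449340_at gave 8.90 and 8.96 in double mutants against 8.75 to 9.01 in wild type (0.05, adjusted p = 0.775). Which part of each gene was deleted was not given in the sources used here. Both double mutant arrays held high Xist (12.37 and 11.75) together with high Y-linked Eif2s3y (8.36 in both), which goes against the label that embryos were not pooled, and no comparison is possible without these arrays. Of 3 wild type arrays, replicate 1 had high Xist (12.28) and low Eif2s3y (3.20), and the other two the reverse. Of 7 limb mesenchyme markers, 7 exceeded the median probe set level (5.41), with Prrx1 at 12.19 to 12.39 and Lhx9 at 11.38 to 11.64 over the 5 arrays. All markers of several other cell types, such as surface ectoderm and endothelium, exceeded it too, so this count does not measure the share of mesenchyme. By the brightest probe set 0 of the 7 were called. Of 10 further mesenchyme probe sets, 3 were called lower and 0 higher, where 9.52% and 8.70% of all probe sets were.

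Thbs1 was lower in double mutants on both of its probe sets, and 1450377_at showed the largest difference among the 15. On 1460302_at the log2 intensities were 8.63 and 8.24 in double mutant replicates 1 and 2 and 9.67, 9.74 and 9.28 in wild type replicates 1, 2 and 3. Both mutant arrays lay below every wild type array. The difference was −1.13 ± 0.20 (SE, 95% interval −1.68 to −0.58, limma adjusted p = 0.0315), a 2.19-fold lower signal. On 1450377_at the double mutants stood at 5.99 and 5.56 and the wild type arrays at 8.69, 8.56 and 7.74. Here wild type replicate 3 stood almost a log2 unit under the other two wild type arrays and still well above the mutants. The difference was −2.56 ± 0.35 (95% interval −3.51 to −1.61, adjusted p = 0.0178), or 5.89-fold, and 0.593% of all probe sets had a lower one.

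The Thbs1 probe sets therefore moved by unequal amounts. The gap between 1460302_at and 1450377_at was 2.64 and 2.68 in double mutants and 0.98, 1.18 and 1.53 in wild type replicates 1, 2 and 3. A further bright probe set, 1421811_at, carries both Pald1 and Thbs1 in the platform annotation and was assigned to neither. It gave 10.94 and 10.81 in double mutants against 10.87, 10.998 and 10.97 in wild type, so its groups overlapped (difference −0.07 ± 0.07, adjusted p = 0.552). The Thbs1 calls were kept without wild type replicate 3 (adjusted p = 0.0428 for 1460302_at and 0.0185 for 1450377_at). Without any of the 4 other arrays both were lost, with adjusted p of 0.0899 to 0.131 and 0.0676 to 0.0985, at differences of −1.32 to −0.93 and −2.78 to −2.34. The call of 1460302_at was also lost with a replicate block (−1.27, adjusted p = 0.0813). Wild type replicate 3 shares its number with no mutant array, so the block difference equals that without this array. Both calls were lost with the 3′ minus 5′ difference as a covariate (−0.84, adjusted p = 0.279, and −1.85, adjusted p = 0.152). With this covariate, and also without wild type replicate 2, limma called 0 of all 45037 probe sets, so these losses are not particular to Thbs1.

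**Figure D1:**
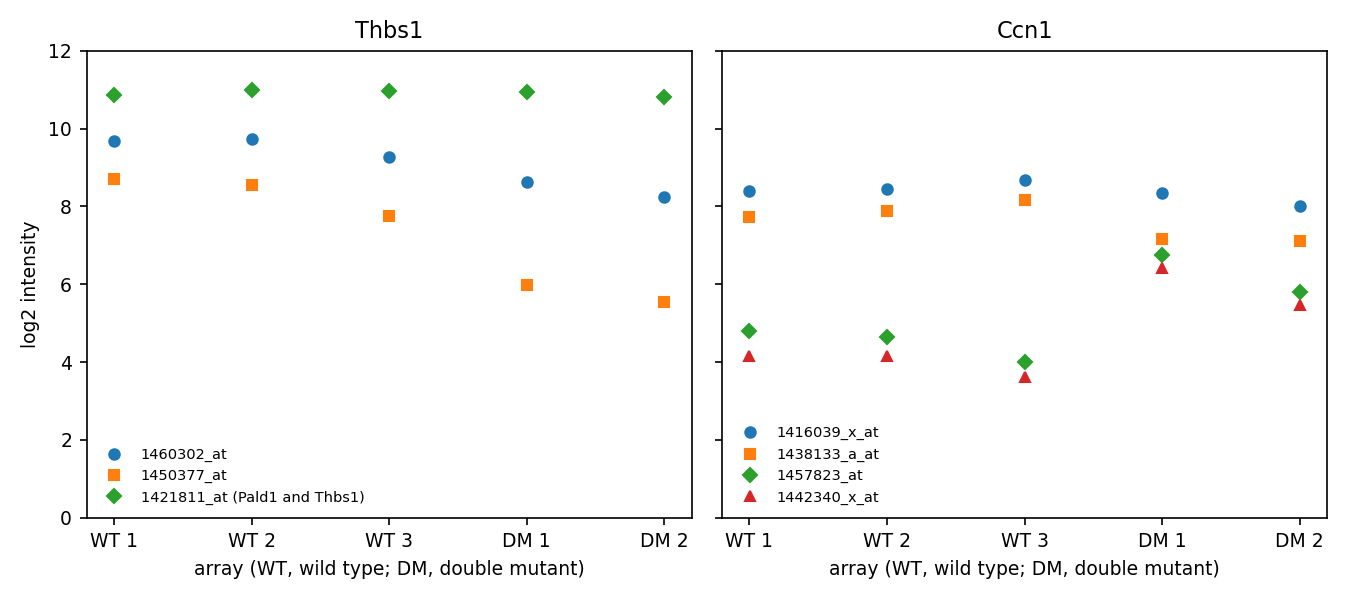
Log2 intensity (y axis) of each Thbs1 and Ccn1 probe set in the 3 wild type (WT) and 2 double mutant (DM) arrays (x axis), 1 symbol per probe set, with the probe set shared by Pald1 and Thbs1 in the left panel. Both Thbs1 probe sets were lower in the 2 mutant arrays while the shared one stayed between 10.81 and 10.998, and the 2 dim Ccn1 probe sets were higher while the 2 bright ones were lower.

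Thrombospondin 1 is made by platelets, endothelium and mesenchyme, and markers of these cells did not all move one way. Of 6 endothelial markers, limma called 0 higher and 3 lower (Pecam1 −1.98, Tie1 −0.96, Emcn −0.52), against 3 not called, among them Cdh5 and Kdr. Their summed intensity was 1113.6 to 1168.4 in double mutants and 1577.1 to 1680.2 in wild type. Of 5 platelet markers, 2 were higher (Pf4 0.69, Ppbp 0.77) and 0 lower, with sums of 1361.1 to 1532.4 and 935.4 to 1009.2. Over all genes 14.7% were called, 6.56% higher and 8.14% lower. By the mean of all probe sets per gene, 4 endothelial markers were lower and 2 platelet markers higher. Here and below, no share over all genes is given for counts by this mean. No marker of either list lay under the median level. The part of these cells in the Thbs1 difference was not tested, and in bulk tissue fewer cells of a type and less RNA per cell cannot be told apart.

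Thbs2, the close relative of Thbs1, was dim, and a small lower call stood on its brightest probe set alone. On 1450663_at the mutant arrays gave 5.34 and 5.33 against 5.67, 5.57 and 5.57 in wild type, without overlap. That difference was −0.27 ± 0.05 (SE, adjusted p = 0.0424), or 1.20-fold, and the call was lost with each of the 5 arrays left out (adjusted p = 0.0756 to 0.119) and with limma's trended (0.0805) or robust (0.0525) variance. On 1422571_at the values were 4.34 and 4.27 in double mutants against 5.34, 4.88 and 4.84 in wild type, again without overlap (−0.71 ± 0.18, adjusted p = 0.0667). This probe set passed with equal array medians (adjusted p = 0.0152), with quantile normalization (0.0288) or without wild type replicate 1 (0.0422). It did not pass without either mutant array (0.213 and 0.236), with the 3′ minus 5′ covariate (−0.44, 0.485) or with log2(value + 32), where the difference was −0.32 (0.106). On 1447862_x_at the groups met at 4.03, with 4.03 and 3.68 in double mutants and 4.16, 4.07 and 4.03 in wild type (−0.23 ± 0.12, 95% interval −0.57 to 0.10). Trpn, a control for a transcript that mouse cells lack, was at 3.07 in wild type.

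Ccn1, an immediate early gene that promotes adhesion and chondrogenesis, gave opposite calls on different probe sets. On its brightest, 1416039_x_at, the mutant arrays gave 8.35 and 8.003 against 8.40, 8.45 and 8.67 in wild type. The highest mutant array and the lowest wild type array were nearly level, and the difference did not pass (−0.33 ± 0.15, SE, 95% interval −0.73 to 0.07, adjusted p = 0.221). It was −0.50 without double mutant replicate 1 and −0.16 without double mutant replicate 2. On 1438133_a_at the arrays parted clearly, at 7.17 and 7.12 against 7.73, 7.89 and 8.16, and this probe set was called lower (−0.78 ± 0.14, adjusted p = 0.0327, a 1.72-fold lower signal). It kept its call without wild type replicate 3 (adjusted p = 0.0391) and lost it without any of the 4 other arrays (0.0548 to 0.143).

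The remaining Ccn1 probe sets, which share 1 source sequence in the platform annotation and so are not independent, were dim in wild type and higher in double mutants. On 1457823_at the values were 6.75 and 5.80 in double mutants against 4.79, 4.64 and 3.998 in wild type (1.80 ± 0.40, adjusted p = 0.0492). On 1442340_x_at they were 6.42 and 5.46 against 4.15, 4.15 and 3.62 (1.97 ± 0.36, adjusted p = 0.0324). In both, double mutant replicate 1 was about a log2 unit above replicate 2, and wild type replicate 3 was the lowest array. Both calls were lost with any of the 5 arrays left out (adjusted p = 0.0800 to 0.170 and 0.0541 to 0.128) and with log2(value + 32), at 1.02 (adjusted p = 0.0648) and 0.98 (adjusted p = 0.0542). Averaged over its 4 probe sets, Ccn1 turned from −0.33 to 0.66 (adjusted p = 0.0676), so its direction depended on the probe set. Such conflict was common, since of 1213 genes with 2 or more called probe sets on the array, 455 (37.5%) had calls in both directions. Where each probe set lies on its transcript was not used here.

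Ccn2, which encodes connective tissue growth factor, was the only member higher in mean on its brightest probe set. Its single probe set 1416953_at gave 8.48 and 8.51 in double mutants against 8.12, 8.34 and 8.37 in wild type. The groups did not overlap, but the gap between them was smaller than the spread of the wild type arrays (difference 0.22 ± 0.10, SE, 95% interval −0.04 to 0.48, adjusted p = 0.219). The interval reaches further above 0 than below it. Ccn2 and Ccn1 are the best known YAP targets of the family, and on their brightest probe sets neither was called.

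Ccn4 was lower in mean on its 2 probe sets, which share a source sequence, and was called lower on 1 of them. On 1448593_at the mutant arrays gave 7.98 and 7.75 against 8.48, 8.36 and 8.58 in wild type. All mutant values lay below the wild type values (−0.61 ± 0.11, SE, 95% interval −0.90 to −0.325, adjusted p = 0.0295), a 1.53-fold lower signal. On 1448594_at the same arrays gave 7.95 and 7.72 against 8.02, 7.999 and 8.29, also without overlap but with a narrower gap (−0.27 ± 0.13, 95% interval −0.63 to 0.08, adjusted p = 0.250). The distance between them was 0.03 and 0.04 in double mutants and 0.46, 0.36 and 0.29 in wild type. Without any of the 5 arrays the call on 1448593_at was lost (adjusted p = 0.0740 to 0.104, differences −0.73 to −0.50).

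Ccn3 and Ccn5 were dim. Ccn3 encodes a CCN protein found in mesenchyme, nervous tissue and muscle precursors. On its brightest probe set, 1426852_x_at, double mutants stood at 3.65 and 3.58 and wild type at 4.96, 4.19 and 4.40 (−0.90 ± 0.25, SE, adjusted p = 0.0828). On 1426851_a_at, from the same source sequence, the values were 3.06 and 3.14 against 4.36, 3.63 and 3.72 (−0.80 ± 0.25, adjusted p = 0.108). In both, wild type replicate 1 was highest and the mutants lay at or near the Trpn level, so the size of the difference is uncertain. With equal array medians both passed (adjusted p = 0.022 and 0.0325), and without wild type replicate 1 the second did (−0.57, adjusted p = 0.0469). With log2(value + 32) the differences were −0.32 and −0.22 (adjusted p = 0.147 and 0.193). Ccn5, on 1419015_at, gave 4.74 and 4.67 in double mutants against 4.73, 4.92 and 4.96 in wild type. One mutant array overlapped the wild type range (−0.17 ± 0.09, 95% interval −0.41 to 0.07, adjusted p = 0.287).

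**Figure D2:**
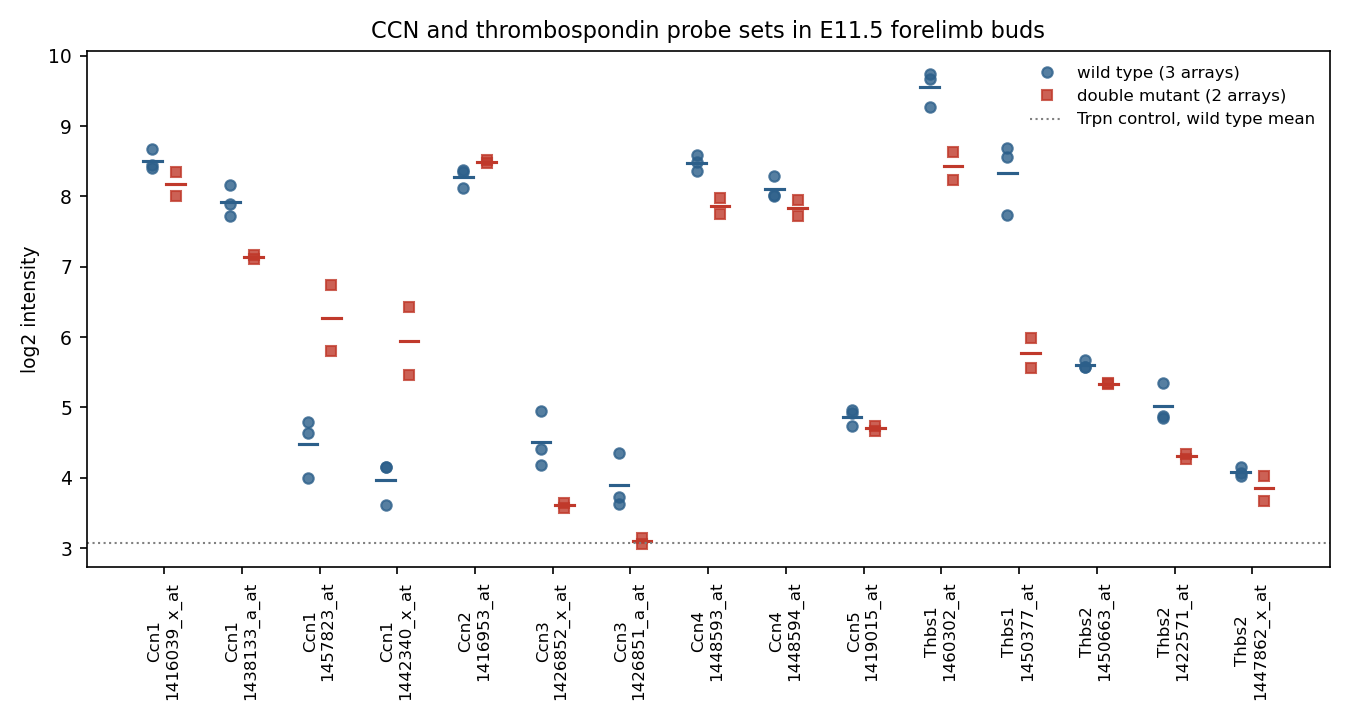
Log2 intensity (y axis) of the 15 member probe sets (x axis) in each of 3 wild type (circles) and 2 double mutant (squares) arrays, with bars at group means and a dotted line at the wild type mean of the Trpn control (3.07). The 2 groups overlap in Ccn5 and in Thbs2 1447862_x_at, and Ccn3 in double mutants lies near the dotted line.

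Of the 15 probe sets, limma called 7, 5 lower and 2 higher, where 18.2% of all probe sets were called, 9.52% lower and 8.70% higher. The called probe sets came from Ccn1, Ccn4, Thbs1 and Thbs2. By the brightest probe set 3 of the 7 genes were called, each lower, against 14.7% of all genes in either direction (8.14% lower, 6.56% higher). In 13 of the 15 probe sets the arrays of the groups did not overlap, 10 lower and 3 higher, and this held for 45.2% of all probe sets (23.0% lower, 22.1% higher). The median difference was −0.33 over the members and −0.01 over all probe sets. Since this contrast was in view when the genes were chosen, nothing is read from these shares.

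**Figure D3:**
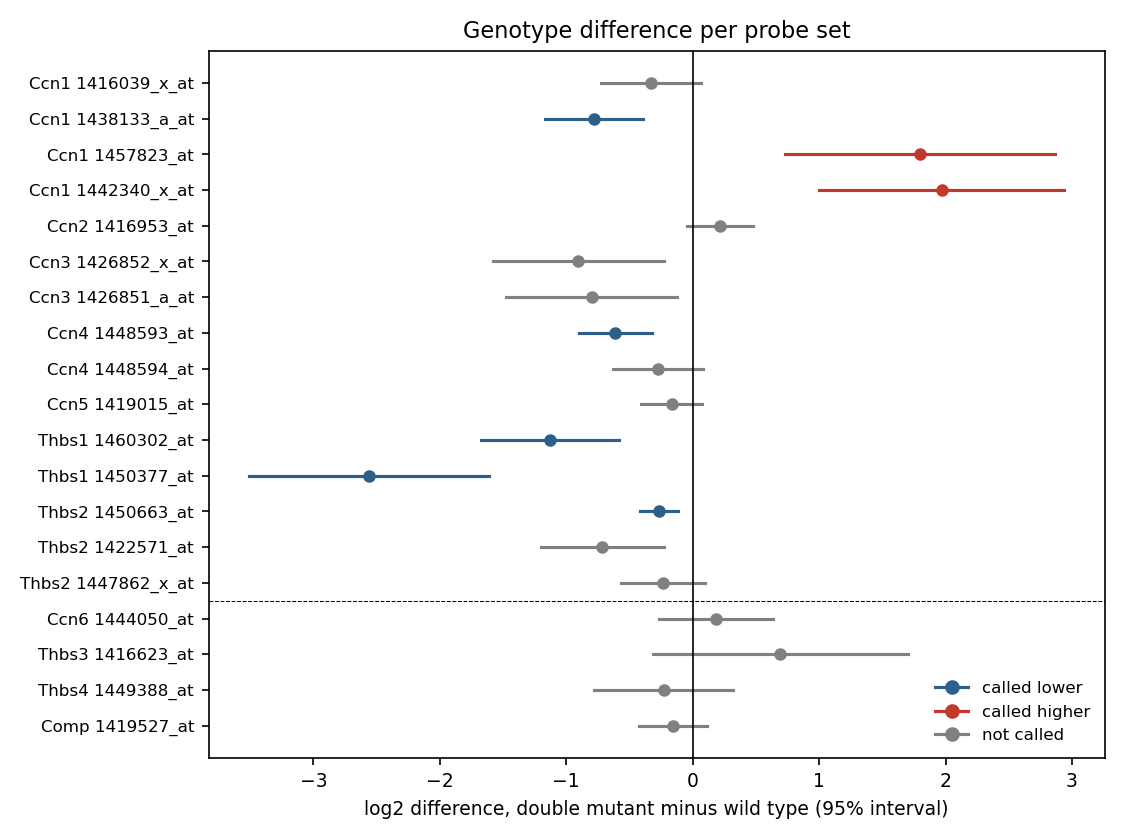
Log2 difference, double mutant minus wild type, with its 95% interval (x axis) for the 15 member probe sets above the dashed line and the 4 other family members below it (y axis), coloured by call at an adjusted p under 0.05. Thbs1 1450377_at lies farthest left at −2.56, the 2 dim Ccn1 probe sets lie at 1.80 and 1.97, and none of Ccn6, Thbs3, Thbs4 and Comp was called.

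Of the 7 called probe sets, 3 kept the call without wild type replicate 3 and 0 without any other array. Without wild type replicate 2, limma called 0 of the 15 probe sets and 0 of all 45037, with 10 and 11115 at an unadjusted p under 0.05. Without wild type replicate 1 it called 2 of the 15 and 2939 of all. These 2 were Ccn3 1426851_a_at and Thbs2 1422571_at, which were not called with all arrays. Without wild type replicate 3 it called 3 of the 15 and 5108 of all. The sign of each of the 15 differences was the same in all 5 fits with 1 array left out. A fit with 1 double mutant array assumes that it varies as the wild type arrays do.

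**Figure D4:**
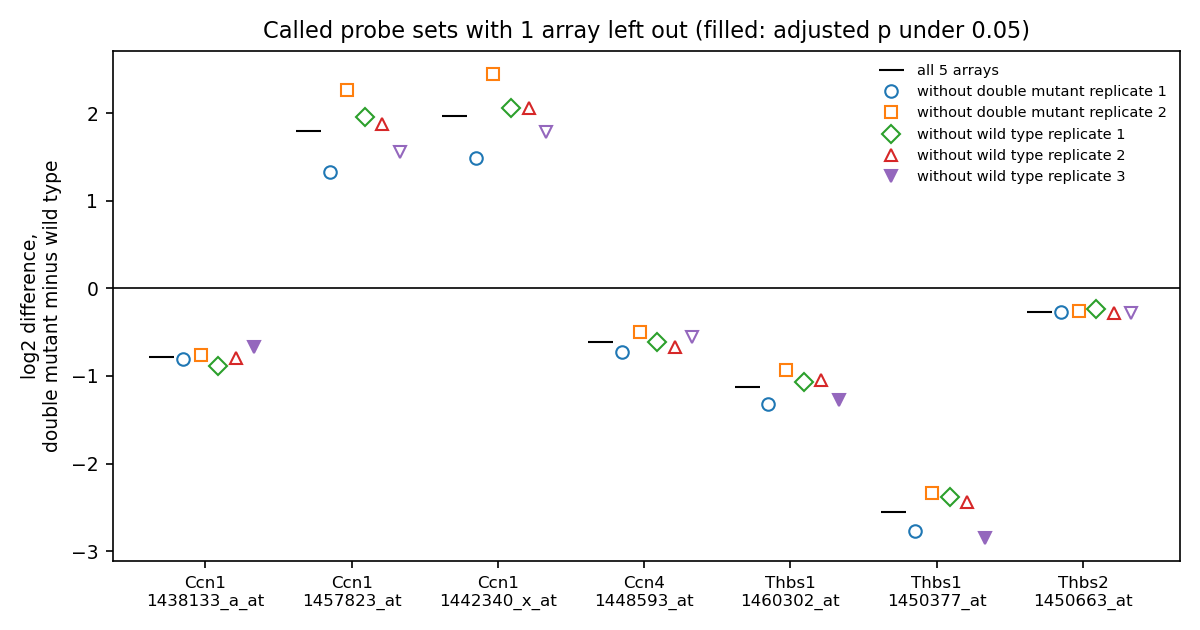
Log2 difference, double mutant minus wild type (y axis), of the 7 called member probe sets (x axis) with all 5 arrays (bar) and with each array left out in turn (symbols, filled where the adjusted p stayed under 0.05). No difference changed sign, and the 3 filled symbols all belong to the fit without wild type replicate 3.

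Within wild type, 13 of the 15 member probe sets had an SD above the median SD of all probe sets (0.10). The widest was Thbs1 1450377_at, with an SD of 0.51 (n = 3), where 97.0% of all probe sets had a smaller one. Ccn1 1457823_at (0.42), both Ccn3 probe sets (0.40 and 0.39) and Ccn1 1442340_x_at (0.31) followed. Thbs2 1450663_at was the tightest, at 0.06. The brightest Ccn1, Ccn2 and Ccn4 probe sets lay between these, at 0.14, 0.14 and 0.11.

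The other genes of both families were Ccn6, a CCN gene tied to cartilage upkeep, Thbs3 and Thbs4, and Comp, the thrombospondin of cartilage and tendon, and limma called 0 of these 4. Of them 0 reached an unadjusted p under 0.05. Thbs3 gave 8.90 and 7.74 in double mutants against 7.65, 7.49 and 7.74 in wild type, so that mutant replicate 1 alone was high (0.69 ± 0.37, SE, 95% interval −0.32 to 1.70). Without double mutant replicate 2 it passed (1.28, adjusted p = 0.0461), and without double mutant replicate 1 the difference was 0.11 (adjusted p = 0.676). Thbs4 was below the median level, with 5.12 and 4.84 in double mutants and 5.33, 4.88 and 5.42 in wild type (−0.23 ± 0.20). Comp stood at 4.60 and 4.31 against 4.60, 4.60 and 4.64 (−0.16 ± 0.10). Ccn6 lay near the Trpn level in all arrays (3.10 to 3.58).

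Among receptors that bind CCN proteins and thrombospondins, 0 of 11 genes rose and 2 fell by the brightest probe set, with a median difference of −0.07. Over all genes the median was −0.02 and 14.7% were called, 6.56% higher and 8.14% lower. The share of this list called in either direction was near that of all genes, though both of its calls were lower. Itga5, a subunit of the fibronectin receptor, gave 5.94 and 5.82 in double mutants against 7.27, 7.58 and 7.72 in wild type (−1.65 ± 0.15, SE, adjusted p = 0.0093). Itgb1, its partner subunit and a receptor chain for CCN proteins, stood at 9.59 and 9.60 against 10.76, 10.86 and 10.55 (−1.13 ± 0.11, adjusted p = 0.0094). Both also fell on their second brightest probe set, by 1.23 and 0.73, and 2 dim Itga5 probe sets were called higher (0.81 and 0.50). Beyond the brightest, the list had 2 probe sets called higher and 4 called lower. With the mean of all probe sets per gene the list held 1 higher and 4 lower genes.

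Among the kinases and factors of the YAP pathway, 2 of 12 measured genes rose and 1 fell (median −0.02), against 14.7% of all genes called in either direction. By the mean of all probe sets per gene 1 rose and 1 fell. Tead1, a DNA-binding partner of YAP, rose by 0.57 ± 0.08 (SE, adjusted p = 0.0192), from 10.07, 10.11 and 10.27 in wild type to 10.76 and 10.68. Stk4, an upstream kinase, rose by 0.48 ± 0.10 (adjusted p = 0.0391), and Lats1, the kinase that inhibits YAP, fell by 0.47 ± 0.07 (adjusted p = 0.0184). Beyond the brightest, 2 probe sets of the list were called lower and 0 higher. They belong to Sav1 (1416075_at, −1.81, adjusted p = 0.0072), an adaptor of Stk4, and to the kinase gene Lats2 (1419678_at, −1.35, adjusted p = 0.0087), whose brightest probe sets were not called (−0.23 and 0.06). Their differences were larger than those of the 3 called genes. Of 20 YAP target genes outside the CCN family, 0 rose and 1 fell by the brightest probe set (median −0.11). This was a lower share than the 14.7% called over all genes by that measure. The called gene was Axl, a receptor tyrosine kinase, at 8.36 and 7.99 in double mutants and 9.03, 9.14 and 9.21 in wild type (−0.95 ± 0.13, adjusted p = 0.0190). With the mean of all probe sets per gene 6 fell, a count for which no share over all genes is given. Of 32 further probe sets of this list, 1 was called higher and 4 lower, where 8.70% and 9.52% of all probe sets were.

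For SRF, its cofactors and their cytoskeletal targets, 0 of 13 genes rose and 2 fell (median −0.24), with 4 lower by the mean of all probe sets. Both this share and that of the matricellular genes were near the 14.7% of all genes called in either direction. Every call in these 2 lists was lower, where 8.14% of all genes were called lower. Of 14 further probe sets of the SRF list 1 was called higher and 5 lower, and of 9 matricellular ones 0 and 2. Over all probe sets 8.70% were called higher and 9.52% lower. Tpm1 and Tpm2, the tropomyosins that line actin filaments, fell by 0.94 ± 0.08 (SE, adjusted p = 0.0082) and by 0.68 ± 0.06 (adjusted p = 0.0082). Tpm1 gave 11.46 and 11.36 in double mutants against 12.38, 12.44 and 12.25 in wild type, and both genes also fell on their second brightest probe set. Among other matricellular genes, 0 of 11 rose and 2 fell (median −0.27), with 3 lower by the mean of all probe sets. Fbln1, which encodes the matrix protein fibulin 1, fell by 0.93 ± 0.09 (adjusted p = 0.0096) with no overlap (10.64 and 10.48 against 11.38 to 11.59), though its second probe set differed by −0.17 (adjusted p = 0.275). Sparcl1, a relative of Sparc, fell by 0.57 ± 0.10 (adjusted p = 0.0317). Of the 10 called genes in these lists, Tpm1 and Tpm2 kept the call in 3 of 5 fits with 1 array left out, and Stk4 and Axl in 0. Without double mutant replicate 1 or wild type replicate 2, limma called 0 of the 45037 probe sets, with 14059 and 11115 at an unadjusted p under 0.05.

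Markers of the other cell types in the bud moved as follows by the brightest probe set. Over all genes 14.7% were called, 6.56% higher and 8.14% lower. Surface ectoderm had 3 of 6 higher (Cdh1 1.05, Epcam 0.76, Trp63 0.52) and summed intensities of 4327.1 to 4338.5 in double mutants and 2699.2 to 2955.5 in wild type. Erythroid markers had 2 of 4 lower (Alas2 −1.89, Hba-x −0.45), with sums of 44196.5 to 49409.6 and 50085.1 to 53546.2. No gene passed among 5 macrophage (Csf1r −0.63, C1qa −0.61, median of the list −0.04), 4 muscle progenitor (Met −0.03, Myf5 0.05), 5 chondrogenic (Col9a1 −0.15, Col2a1 −0.79), 5 smooth muscle and pericyte (Acta2 −0.48, Pdgfrb 0.09) or 3 Schwann precursor markers (Erbb3 0.03, Sox10 −0.11). Beyond the brightest, 1 surface ectoderm probe set was called higher and 1 lower. By the mean of all probe sets per gene, 2 surface ectoderm markers were called higher. By that mean 2 erythroid, 1 macrophage, 2 muscle progenitor and 1 chondrogenic marker were called lower. Of the muscle progenitor genes, Met (1422990_at, −2.88) and Lbx1 (1422323_a_at, −0.75) were also called lower on a dimmer probe set. Sums in double mutants and wild type were 595.6 to 773.8 and 844.0 to 950.5 for macrophages, 913.9 to 1009.4 and 894.8 to 991.4 for muscle progenitors, and 5293.4 to 7109.7 and 6878.3 to 9370.6 for chondrogenic cells. They were 2939.5 to 4252.0 and 3725.1 to 4368.9 for smooth muscle and pericytes, and 623.3 to 844.7 and 646.0 to 792.3 for Schwann precursors. Cnn1 and Foxd3 were the only marker genes of these lists under the median level. The part of these cells in the CCN and thrombospondin differences was not tested.

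Genes with the most similar profile were sought among 11532 genes above the median level, by the root mean square distance of their 5 values after centring on the wild type mean. All of these genes share the same 5 arrays. Nearest to Thbs1 1460302_at were Ppp2r3a (0.06 log2 units, difference −1.14) and Zfp62 (0.07, difference −1.10). Nearest to Ccn4 were D430041D05Rik and Hebp1 (both 0.04, differences −0.56 and −0.58). For Ccn1 they were Col8a1 and 0610040J01Rik (both 0.03), for Ccn2 Zfp953 (0.01) and S100a10 (0.02), and for Ccn5 Suclg2 and Hunk (both 0.02). For Ccn3 they were Rarb (0.10) and Cxcr4 (0.14), and for Thbs2 Lmbrd1 and Ndufs7 (both 0.02).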

How the data were processed

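RNA of 5 forelimb samples was labelled with biotin in 2 rounds of amplification, per the labels' protocols. The authors deposited linear intensity values, 1 per array for each probe set. RMA and limma stand in the submitters' processing notes without version or role, and the step to a linear scale was not given in the sources used here. The values were taken as already normalized by the submitters, so no further normalization was applied. Median intensities were 44.4 and 42.1 in double mutants and 41.7, 40.6 and 39.4 in wild type. Both double mutant medians thus lay above every wild type median. After log2, limma 3.58.1 in R 4.3.3 was fitted to 45037 probe sets (64 controls left out) with 1 mean per genotype and 3 residual degrees of freedom, and p-values were two-sided and Benjamini-Hochberg adjusted. Calls needed an adjusted p under 0.05. Gene symbols came from the platform annotation (1 symbol for 34945 probe sets, several for 932, none for 9160). Lists used the probe set with the highest mean per gene. Named were all member probe sets, up to 4 called genes of each list or otherwise the 2 brightest, every other family member and 2 like genes per member. The members and lists were chosen with earlier results of these data known. The fit was tested on simulated data. Alternatives were other scalings, an added 32, a filter at the median level, trended or robust variance, a replicate block, a 3′ minus 5′ covariate and each array left out. The number of arrays limits the precision.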

Additional observations from a re-analysis of the deposited data

How the results depend on the processing

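Over the whole array limma called 8206 probe sets, and 2351 with a replicate block, 0 with the 3′ minus 5′ covariate (9633 at an unadjusted p under 0.05) and 0 to 5108 with 1 array left out. Member probe sets called numbered 7, and 1 with the block, 0 with the covariate (7 at an unadjusted p under 0.05) and 0 to 3 with 1 array left out. Member genes called by the brightest probe set numbered 3, and 0 with the block, 0 with the covariate, 1 by the mean of all probe sets per gene (Thbs1) and 0 to 1 with 1 array left out. Called genes over the 6 lists that are no cell type markers numbered 10, and 2 with the block, 0 with the covariate, 20 by the mean of all probe sets per gene and 0 to 8 with 1 array left out. The block is no paired analysis, since 2 shared numbers name samples only. Wild type replicate 3 has no partner in the block, so the block differences equal those without that array. Deviations of same-numbered arrays correlated at 0.09 and 0.12. Those of double mutant 1 with wild type 2 gave −0.12, and of double mutant 2 with wild type 1 −0.09. With 2 mutant arrays the deviations mirror each other, so these values cannot decide whether the numbers pair samples. Under the scalings, the added 32, the filter and the variance settings, 5 to 10 member probe sets were called. The highest count, 10, came with equal array medians, which also called the most over the whole array (9625 of 45037). The other scaling, the added 32 and the variance settings called 7823 to 9045 of 45037. The filter left 8 of 15 member probe sets in the test and called 5 of them, and 7573 of all 22518 tested. Direction turned for Ccn1 by the mean of its probe sets (0.66), and among uncalled genes for Ccn6 without double mutant replicate 2 (−0.0227 to 0.39 over arrays left out). It also turned with equal array medians for Prrx1 (−0.0561), Myf5 (−0.0364), Pdgfrb (−0.0005) and Erbb3 (−0.0614), with the covariate for Prrx1 (−0.10), Myf5 (−0.10) and Erbb3 (−0.32), and with quantile normalization for Met (0.027). Over arrays left out, Prrx1 ran from −0.0641 to 0.13, Met from −0.21 to 0.15, Myf5 from −0.0369 to 0.12, Acta2 from −1.04 to 0.077 and Erbb3 from −0.23 to 0.28. The block, the covariate and each array left out leave fewer residual degrees of freedom than the 3 of the fit by genotype alone. The causes of these changes were not tested further. Dim levels limit Ccn3, Ccn5, Ccn6 and Thbs2.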

Other observations

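Outside the CCN and thrombospondin genes, 3 probe sets in the lists, chosen after their values were seen, differed far more than the brightest probe set of the same gene. Vcl, which encodes the adhesion protein vinculin, stood on 1416157_at at 3.95 and 4.27 in double mutants against 8.30, 8.16 and 7.40 in wild type (−3.84 ± 0.32, SE, limma adjusted p = 0.0082), while 1416156_at stood at 10.74 and 10.33 against 10.32, 10.33 and 10.46 (adjusted p = 0.465). Itgav, a receptor chain for CCN proteins and thrombospondins, stood on 1421198_at at 4.08 and 4.09 against 8.07, 8.10 and 6.94 (−3.62 ± 0.41, adjusted p = 0.0129), while 1452784_at stood at 10.88 and 10.68 against 10.65, 10.51 and 10.72 (adjusted p = 0.354). Prrx1, a limb mesenchyme regulator whose brightest probe set was not called, gave 6.74 and 7.18 against 9.78, 9.97 and 9.06 on 1425527_at (−2.64, adjusted p = 0.0152). On all 3, wild type replicate 3 was the lowest wild type array, as on Thbs1 1450377_at. This array also had the highest 3′ minus 5′ difference of Actb in wild type (0.68 against 0.20 and 0.24). The double mutant arrays, which lay lower still on all 3 probe sets, had Actb differences of 0.65 and 0.56. For Gapdh the difference was 0.27 and 0.16 in double mutants and −0.06 in wild type replicate 3. The part of RNA quality in these values was not tested.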
